A study of Arabidopsis thaliana with 9 samples.

Results

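The 60 Arabidopsis thaliana loci described here encode proteins of the cytosolic ribosome, 38 of the small (40S) subunit and 22 of the large (60S) subunit. They were taken from a fixed list of locus codes and matched to probe sets by code, whatever the symbol, and a probe set was kept where every locus annotated to it was on the list. This gave 51 of the 22746 probe sets tested, which cover 57 of the 60 loci. Of the 51, 46 belong to a single locus and 5 are shared by 11 listed loci (RPS17A, RPS17B and RPS17D; RPS20A and RPS20C; RPL6B and RPL6C; RPS3A and RPS3B; RPS16A and RPS16C), so their near-identical transcripts cannot be told apart. There are 32 small subunit and 19 large subunit probe sets. RPS10B (AT5G41520), RPL8C (AT4G36130) and RPL18B (AT3G05590) have no probe set in the annotation used and were not analysed here.

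The cytosolic ribosome is built in the nucleolus from ribosomal RNA and many small basic proteins, and it translates the nuclear-encoded messages of the cell. The small subunit binds the message and reads its codons, and the large subunit joins the amino acids and holds the tunnel through which the new chain leaves. In Arabidopsis each ribosomal protein is made from a small family of paralogous genes, and dividing tissues such as meristems and embryos are rich in these transcripts. The families below carry both the gene names (RPS for the small, RPL for the large subunit) and the names shared between species (uS, eS, uL, eL).

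The study measured total RNA of shoot-apical somatic embryo cultures on 9 Affymetrix ATH1 arrays, 3 per genotype. The genotypes were 35S:AGL15, in which the MADS-domain gene AGL15 is placed under a constitutive viral promoter, the insertional loss-of-function double mutant agl15-4 agl18-1, and Columbia wild type; per the labels all are of the Columbia ecotype. All 3 were grown from seed in shaken liquid MS medium with 2% sucrose, 10 mM MES and 4.5 µM 2,4-D, a synthetic auxin, with 23 h of light per day and 1 h of dark, and were harvested on day 10. The labels call the arrays of a genotype biological replicates without saying whether they came from separate cultures, so p-values measure the spread between these samples. Whole cultures were extracted, so fewer cells of a type and less RNA per cell cannot be told apart.

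AGL15 has no probe set in the annotation used here. AGL18 (AT3G57390), mutated in the double mutant, gave 55.8, 52.4 and 90.8 intensity units in 35S:AGL15, 113, 68.5 and 62.6 in double mutant cultures, and 171, 177 and 189 in wild type. Between 69.2% and 84.5% of probe sets lay above their array's background level, the brightest of 27 control probe sets for Bacillus transcripts. The deposited arrays share a trimmed mean of about 500 intensity units. Hybridisation spike-in controls, averaged on the log scale over 9 probe sets, read 527, 499 and 870 in 35S:AGL15, 1116, 896 and 682 in double mutant cultures, and 602, 483 and 589 in wild type, so they were brightest on the 3 double mutant arrays and on 35S:AGL15 replicate 3. Spike-in brightness in the double mutant cannot be told apart from genotype. The ratio of 3′ to 5′ actin probe sets was 2.31 on double mutant replicate 1 and between 1.33 and 1.70 on the other arrays. Of the labelled tissue's markers, the shoot meristem gene LAS was above background on all arrays and CLV3 was below it on all arrays. The seed storage genes OLEO3 and PAP85 rose in 35S:AGL15 over wild type (log2 changes of 2.64 and 2.16, limma adjusted p = 0.013 and 0.038), whereas the embryo regulator BBM differed by 0.03 ± 0.25 (SE, limma adjusted p = 0.96).

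The ribosomal protein probe sets gave some of the brightest signals of the culture. On every array, 45 to 47 of the 51 lay among the brightest 5% of probe sets. Together they held 2.96 to 4.10% of the summed intensity in 35S:AGL15, 3.61 to 4.33% in the double mutant and 2.92 to 3.22% in wild type. The brightest, RPS16A/RPS16C (uS9, a protein of the small subunit's head that lies near the decoding centre), had 21616, 16656 and 26538 units in 35S:AGL15, 30022, 23324 and 24265 in double mutant cultures, and 16084, 17239 and 19344 in wild type. A single member sat near background: RPL8B (AT3G51190, uL2, a large subunit protein near the peptidyl transferase centre) had 31.2, 38.2 and 32.5 units in 35S:AGL15, 53.1, 22.0 and 12.5 in double mutant cultures, and 20.2, 24.2 and 75.5 in wild type. Changes given for RPL8B below rest on these values near background. The genes are short: the median span of the 60 loci is 1700 bases (951 to 2327), against 2103 for 13333 genes with a probe set of their own.

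In 35S:AGL15, no member differed from wild type past the threshold, a limma adjusted p under 0.05 after Benjamini-Hochberg adjustment over all probe sets. Of the 51, 0 were called higher and 0 lower, where 1.38% of all probe sets were called higher and 2.31% lower. At an unadjusted p under 0.05, 0 members passed in either direction, where 6.13% of all probe sets were higher and 11.6% lower. The median member change was 0.22 on the log2 scale against −0.13 over all probe sets. The change was positive for 48 members and negative for 3, where 40.4% of all probe sets had a positive change. The 95% confidence interval lay within a 2-fold change in either direction for 47 of the 51. Small subunit probe sets had a median change of 0.26 and large subunit probe sets 0.20.

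Among the small subunit proteins, RPS19B (AT5G15520, eS19, which in yeast and human cells is needed to mature the small subunit) had the highest point estimate. It read 3595, 2153 and 4103 units in 35S:AGL15, against 1865, 1989 and 2671 in wild type. The lowest 35S:AGL15 array lay below the highest wild type array, and the log2 change was 0.56 ± 0.30 (SE, limma adjusted p = 0.37). RPS9C (AT5G39850, uS4, a protein at the message entry channel) read 3553, 2111 and 3110 in 35S:AGL15, against 1505, 1942 and 2609 in wild type. These groups also overlapped, with a change of 0.54 ± 0.27 (SE, limma adjusted p = 0.34). RPS8B (AT5G59240, eS8, a protein of the small subunit's body) had the lowest estimate, with 628, 414 and 716 units in 35S:AGL15, against 658, 686 and 756 in wild type, a change of −0.29 ± 0.24 (SE, limma adjusted p = 0.56).

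The 2 groups did not overlap for 3 members, all higher in 35S:AGL15, where 8.23% of all probe sets were higher without overlap and 14.8% lower. RPS17C (AT3G10610, eS17) read 4526, 3826 and 5528 units in 35S:AGL15, against 3590.0, 3732 and 3463 in wild type. RPS15D (AT5G09510, uS19, a protein of the head that faces the decoding site) read 2961, 2985 and 3732 in 35S:AGL15, against 2295, 2613 and 2720.4 in wild type. The third was the probe set of RPS17A, RPS17B and RPS17D, at 11851, 11855 and 16900.4 in 35S:AGL15 and 10880, 11000.3 and 11832 in wild type. None of the 3 passed the threshold (limma adjusted p = 0.42, 0.35 and 0.55).

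Of the large subunit proteins, the 2 genes for uL4, which lines the peptide exit tunnel, had changes near 0 in 35S:AGL15, as did RPL6A (AT1G18540, eL6). RPL4D (AT5G02870) read 8027, 11496 and 10183 units in 35S:AGL15, against 10167, 9694 and 9606 in wild type, a change of −0.00 ± 0.18 (SE, limma adjusted p = 0.99). RPL4A (AT3G09630) read 7473, 10418 and 9833 in 35S:AGL15, against 9888, 9263 and 8229 in wild type, a change of 0.01 ± 0.18 (SE, limma adjusted p = 0.99). In both genes, 35S:AGL15 replicate 1 was the lowest of the 6 arrays.

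As deposited and after median centring, the 35S:AGL15 arrays lay further apart than those of the other genotypes. Spike-in scaling and loess did not keep this order. The median range of a member over the 3 arrays was 0.67 on the log2 scale in 35S:AGL15, 0.36 in the double mutant and 0.23 in wild type. As a median over members relative to the wild type mean, the 35S:AGL15 arrays stood at 0.18, −0.04 and 0.59, the double mutant arrays at 0.67, 0.33 and 0.39, and the wild type arrays at −0.10, −0.02 and 0.11. After spike-in scaling these medians ran from −0.06 to 0.25 in 35S:AGL15, from −0.36 to 0.10 in the double mutant and from −0.21 to 0.18 in wild type. After median centring they ran from −0.05 to 1.00 in 35S:AGL15, 0.79 to 1.21 in the double mutant and −0.12 to 0.17 in wild type. After loess they ran from −0.02 to 0.08 in 35S:AGL15, from −0.08 to 0.09 in the double mutant and from −0.02 to 0.04 in wild type. Replicate 3 was the highest 35S:AGL15 array for 45 of the 51 members, and replicate 2 the lowest for 41. Without replicate 3 the median member change in 35S:AGL15 was 0.05, and without replicate 2 it was 0.38. Replicate 3 is also the 35S:AGL15 array with the brightest spike-in controls; the part of the array in this difference was not tested.

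In the double mutant, the ribosomal protein probe sets lay above wild type nearly throughout, while few passed the threshold. RPS10A rose, and 0 members fell, where 3.9% of all probe sets were called higher and 15% lower. At an unadjusted p under 0.05, 19 of the 51 were higher and 0 lower, where 9.97% of all probe sets were higher and 24.3% lower. This count of 19 was 4 without double mutant replicate 1, 7 without wild type replicate 1 or replicate 2, 12 without wild type replicate 3, 10 without double mutant replicate 3, and 28 without 35S:AGL15 replicate 3. The shares of all probe sets in these fits are not given here, so the counts show only how far 19 rests on single arrays. The median member change was 0.46 against −0.16 over all probe sets, positive for 49 members, where 41.8% of all probe sets had a positive change, and negative for RPS8B and RPL8B. For 30 of the 51 the 95% interval lay within a 2-fold change. The 3 double mutant arrays all exceeded the 3 wild type arrays in 38 members (27 small, 11 large subunit), where 15.8% of all probe sets did so. They all lay below wild type in 1 member, RPS8B, where 30.3% of all probe sets did so. The comparisons of the 2 genotypes with wild type share the wild type arrays.

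**Figure D1:**
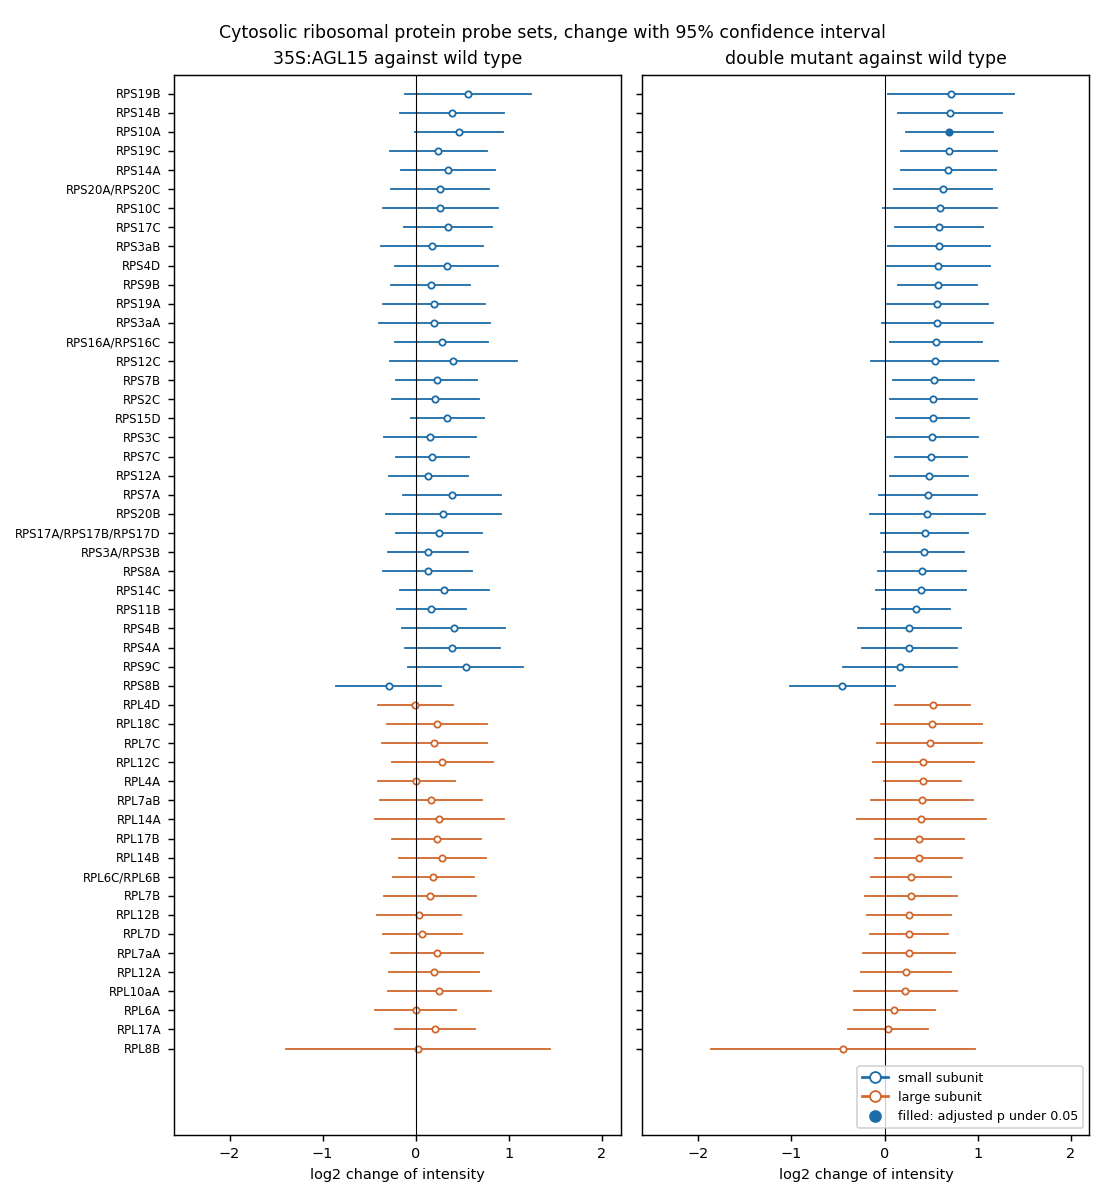
Log2 change of intensity of the 51 ribosomal protein probe sets in 35S:AGL15 (left) and the double mutant (right) against wild type, with 95% confidence intervals from limma (3 arrays per genotype, blue for small and orange for large subunit, filled where the adjusted p is under 0.05). Points on the right are positive for 49 of 51 and those of the small subunit reach further right, yet only RPS10A is filled; RPL8B is near background.

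RPS10A (AT4G25740, eS10, a protein of the small subunit's head at the message entry side) read 7508, 6575 and 7129 units in the double mutant, against 3956, 4330 and 4827 in wild type. The double mutant arrays were all higher, by 0.70 ± 0.20 on the log2 scale, a 1.62-fold rise (SE, limma adjusted p = 0.049). In 35S:AGL15 the same probe set read 6516, 4639 and 7196, of which the lowest overlapped wild type. The call is at the edge of the threshold: it was lost without any one of the wild type or double mutant arrays or 35S:AGL15 replicate 1, when 0 members passed, and 6 and 7 members passed without 35S:AGL15 replicate 2 and replicate 3. The shares of all probe sets passing in these fits are not given here.

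The other small subunit genes with the highest estimates were of 2 families. RPS14B (AT3G11510, uS11, a protein of the platform beside the message exit) read 20799.8, 17098 and 17761 units in the double mutant, against 10593, 11323 and 12121 in wild type. Its change was 0.71 ± 0.24 without passing the threshold (SE, limma adjusted p = 0.078), and its paralogue RPS14A (AT2G36160) changed by 0.69 on the log2 scale (limma adjusted p = 0.064). RPS19B read 4424, 2879 and 3426 in the double mutant, against 1865, 1989 and 2671 in wild type, a difference of 0.71 ± 0.30 (SE, limma adjusted p = 0.13). RPS19C (AT5G61170) read 18899, 13752 and 14791 in the double mutant, against 9034, 9758 and 10308 in wild type (0.69 on the log2 scale, limma adjusted p = 0.067). In each of these genes the double mutant arrays were all above wild type.

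RPS8B stood apart from the other small subunit genes. It read 628, 449 and 470.1 units in the double mutant, against 658, 686 and 756 in wild type, all 3 lower, with a change of −0.46 ± 0.24 (SE, limma adjusted p = 0.23). Its paralogue RPS8A (AT5G20290) read 22694, 18679 and 18778 in the double mutant, against 15032, 14460.2 and 15832 in wild type, all 3 higher (0.40 on the log2 scale, limma adjusted p = 0.21).

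In the large subunit, RPL4D had the highest estimate. It read 14238, 13446 and 14482 units in the double mutant, against 10167, 9694 and 9606 in wild type, 0.52 ± 0.18 higher (SE, limma adjusted p = 0.077). RPL4A read 12109, 12164 and 11941 in the double mutant, against 9888, 9263 and 8229 in wild type (0.41, limma adjusted p = 0.15). Leaving out RPL8B, which is near background, the lowest estimate was that of RPL17A (AT1G27400, uL22, whose loop reaches into the exit tunnel). It read 9336, 8229 and 8173 in the double mutant, against 8287, 8343 and 8341 in wild type. These groups overlapped, with a change of 0.04 (limma adjusted p = 0.91). RPL6A read 10854, 7769 and 8620 in the double mutant, against 8458, 8333 and 8279.8 in wild type, and also overlapped.

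The 2 subunits did not stand at the same height in the double mutant. The median change against wild type was 0.53 over the small subunit probe sets and 0.28 over the large, a gap of 0.24 on the log2 scale. The gap was 0.07 in 35S:AGL15 against wild type. Per array and relative to the wild type mean, the small subunit median exceeded the large by 0.26, 0.20 and 0.17 in the double mutant and by 0.07, 0.04 and 0.11 in 35S:AGL15, against −0.01, −0.00 and −0.03 in wild type, so the 3 genotypes did not overlap. The gap in the double mutant was 0.18 after quantile normalization and 0.18 after cyclic loess, both of which remove most of the common shift, and it is the same as in the deposited values under any scaling by 1 factor per array. After loess the arrays stood at 0.20, 0.17 and 0.19 in the double mutant, 0.07, 0.04 and 0.15 in 35S:AGL15, and −0.01, −0.00 and −0.02 in wild type. No test was made of this gap, since its members were chosen with earlier results known.

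The gap was not a property of all ribosomal proteins measured. Among 82 probe sets of other cytosolic ribosomal proteins (21 small, 61 large subunit, assigned after the data were seen), small minus large was −0.04 in the double mutant against wild type and −0.03 in 35S:AGL15 against wild type. Per array it was 0.06, −0.05 and −0.06 in the double mutant. Their median change equalled that of the members to 2 decimals in the double mutant (0.46) and was 0.21 in 35S:AGL15.

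By family, the highest mean changes in the double mutant were those of eS19 (0.66), eS10 (0.65), uS11 (0.59) and eS1 (0.58), all small subunit. After cyclic loess, eS19 and eS10 stood at 0.26 and 0.22 and uS19 and uS17, each with 1 probe set (RPS15D and RPS11B), at 0.32 and 0.23. The lowest family means after loess were uL22 (−0.28), uL1 (−0.25, RPL10aA, the mobile stalk at the exit site for transfer RNA) and eL6 (−0.23), all large subunit. Next lowest was eS8 (−0.21), of the small subunit. Family means have no test, and none of their members passed the threshold after loess.

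**Figure D2:**
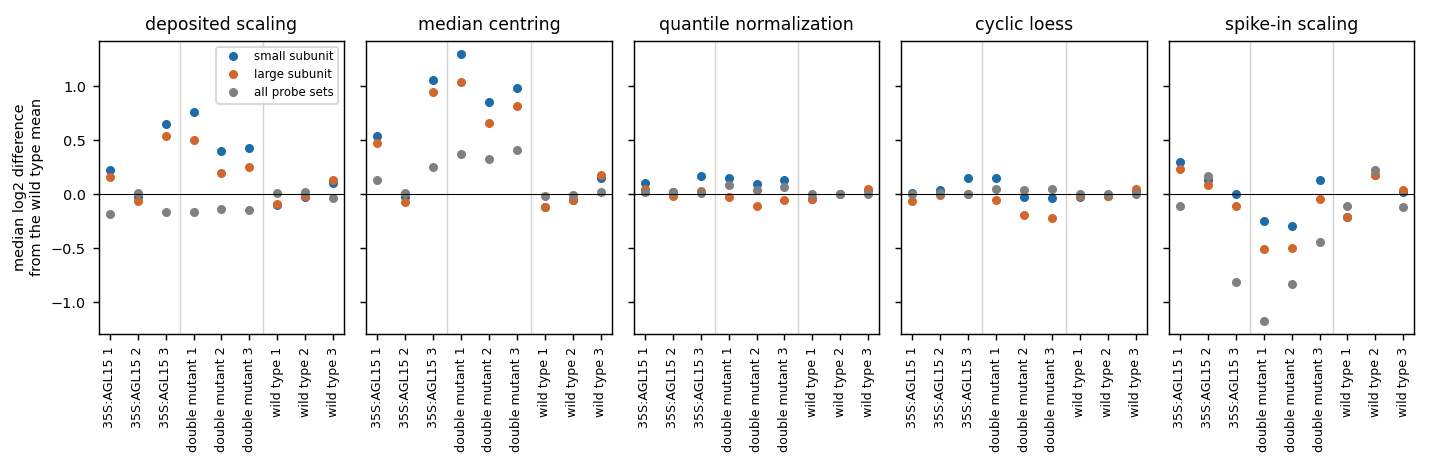
Median log2 difference from the wild type mean on each of the 9 arrays, for small subunit members (blue), large subunit members (orange) and all 22746 probe sets (grey), under 5 scalings. The height of the members over 0 depends on the scaling, from about 1 in the double mutant after median centring to small subunit medians below 0 on 2 double mutant arrays after spike-in scaling, while blue lies above orange on the 3 double mutant arrays in every panel.

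The direction of the common shift depended on how the arrays were brought to one scale. For the double mutant against wild type, the median member change was 0.46 as deposited, 0.98 after median centring, 0.08 after quantile normalization, −0.02 after cyclic loess and −0.20 after scaling to the spike-in controls. The median over all probe sets under the same scalings was −0.16, 0.36, 0.06, 0.03 and −0.82. For 35S:AGL15 against wild type, the member medians were 0.22, 0.47, 0.04, 0.01 and 0.08, and the medians over all probe sets −0.13, 0.12, 0.00, −0.01 and −0.27. Median centring called 32 members higher in the double mutant (26 small and 6 large subunit), where 17.9% of all probe sets were called higher. In the same comparison, quantile normalization called 0 members, where 7.18% of all probe sets were called higher and 9.24% lower, and cyclic loess called 0, where 6.98% were called higher and 9.49% lower. At an unadjusted p under 0.05, quantile normalization gave 1 higher and 0 lower and loess 1 higher and 1 lower. The shares of all probe sets at that unadjusted level are not given here, so these counts have nothing to be set against. Spike-in scaling called RPS8B lower in the double mutant (−1.12 on the log2 scale, limma adjusted p = 0.036), where 23.7% of all probe sets were called lower.

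Only 5 members kept a positive change in the double mutant under all 5 scalings, and all are of the small subunit: RPS10A, RPS14A, RPS14B, RPS19B and RPS19C. Under spike-in scaling their changes were between 0.02 and 0.05, and with a second spike-in set all 51 members had a negative change, RPS10A at −0.10. For RPS10A the change was 0.43 after quantile normalization (limma adjusted p = 0.088) and 0.36 after loess (limma adjusted p = 0.13). In 35S:AGL15 against wild type, 25 members kept a positive change under all 5 scalings, 19 of them of the small subunit, and RPS8B kept a negative one. For neither comparison is the share of all probe sets that kept their sign given here. The counts of 5 and 25 therefore cannot be read as a result about the members. RPS19B was at 0.47 after loess and 0.42 after spike-in scaling, and RPS9C at 0.47 and 0.40, none past the threshold.

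The shift varied with the brightness of the probe set. When all probe sets were divided into 20 classes by mean log2 intensity, the brightest class held 47 members and 1091 other probe sets. In the double mutant against wild type the median change there was 0.48 for members and 0.35 for the others, while in the tenth class from the dimmest it was −0.51 for the others. The 2 dimmest classes stood at 0.11 and 0.12 in that comparison, so the change did not rise steadily with brightness. The medians in the brightest class were 0.23 for members and 0.16 for the others in 35S:AGL15 against wild type, with −0.30 for the others in the tenth class. After loess, which removes such a trend, the brightest class stood at −0.02 for members and −0.01 for the others in the double mutant. The double mutant arrays were all above wild type in 78.7% of the 47 members and 57% of the 1091 others. RPS8B is in the 16th class, where the others had a median of −0.09 in the double mutant against wild type, beside −0.46 for RPS8B, and after loess 0.08 beside −0.26.

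**Figure D3:**
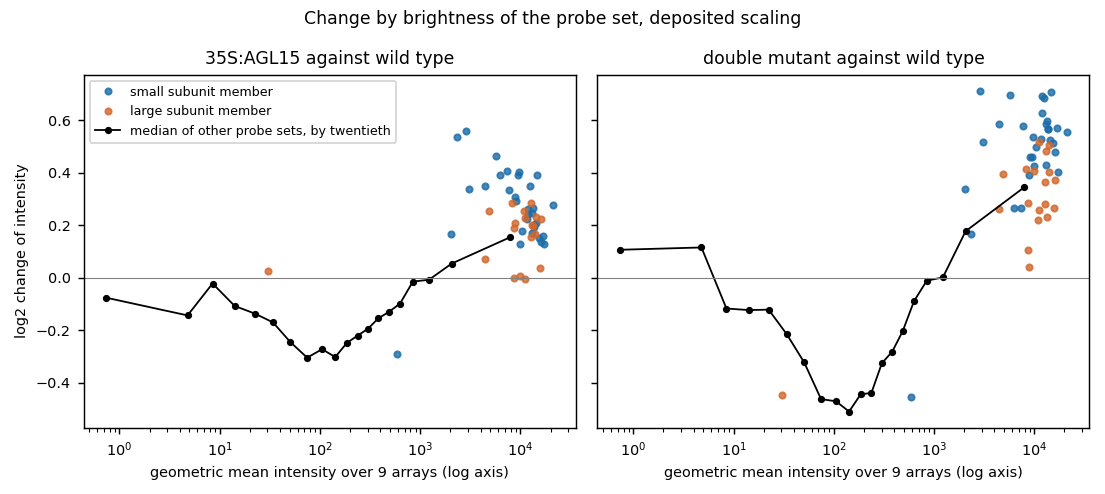
Log2 change against wild type (vertical axis) by geometric mean intensity over 9 arrays (horizontal log axis) for members of the small (blue) and large (orange) subunit, with the median of all other probe sets in each of 20 brightness classes (black). In the double mutant the black line stands at 0.11 and 0.12 in the 2 dimmest classes and runs from −0.51 in the tenth class to 0.35 in the brightest class. Most members cluster at its right end, the small subunit higher than the large.

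In 35S:AGL15 against the double mutant, 0 members were called higher and 0 lower, where 10.4% of all probe sets were called higher and 5.27% lower. At an unadjusted p under 0.05, RPL4D alone was lower and 0 were higher, where 11.8% of all probe sets were lower and 19.5% higher. Without 35S:AGL15 replicate 3, 17 members were lower at this level. The share of all probe sets in that fit is not given here. The count of 17 shows only how far this result rests on that array. With all arrays, the median member change was −0.23 against 0.08 over all probe sets. The change was positive for 7 members and negative for 44, where 54.6% of all probe sets had a positive change. The median was −0.079 without 35S:AGL15 replicate 2, with 19 members positive and 32 negative, −0.37 without replicate 3, and −0.13 without double mutant replicate 1. RPL4D read 8027, 11496 and 10183 units in 35S:AGL15, against 14238, 13446 and 14482 in double mutant cultures, and differed by −0.52 ± 0.18 (SE, limma adjusted p = 0.083). RPS19C differed by −0.45 (limma adjusted p = 0.21) and RPS9C by 0.37 (limma adjusted p = 0.39). All 35S:AGL15 arrays lay below the double mutant in RPL4A, RPL4D, RPS7C and RPS9B, where 13.2% of all probe sets did so, and above it in 0 members, where 20.8% did so. After median centring RPL4D and RPL4A were called lower in 35S:AGL15 (−0.80 and −0.68, limma adjusted p = 0.020 and 0.039), where 11.1% of all probe sets were called lower. After spike-in scaling all 51 members had a positive change (median 0.30, against 0.60 over all probe sets).

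Paralogues of a family mostly changed by like amounts. Over the 19 families with more than 1 probe set, the median gap between the highest and the lowest paralogue was 0.10 in 35S:AGL15 against wild type, 0.16 in the double mutant against wild type and 0.20 in 35S:AGL15 against the double mutant. It was under 0.25 in 14, 14 and 12 families. These gaps set 2 probe sets side by side on the scale of their changes and were not tested.

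RPS9B and RPS9C, both uS4, showed the widest gap that was kept by loess. RPS9C read 3553, 2111 and 3110 units in 35S:AGL15, against 2217, 2051 and 2373 in the double mutant, and the groups overlapped. RPS9B (AT5G15200) read 14901, 14002 and 18998 in 35S:AGL15, against 24635, 19529.7 and 19438 in the double mutant, with all 35S:AGL15 arrays lower. The changes were 0.37 for RPS9C and −0.41 for RPS9B, a gap of 0.78 as deposited and 0.55 after loess. In the double mutant against wild type, RPS9B stood 0.40 above RPS9C as deposited. That gap was not kept by loess, with RPS9B at 0.01 and RPS9C at 0.03. RPS8A and RPS8B differed by 0.86 in the double mutant against wild type, and by 0.10 after loess. In eS4, RPS4B (AT5G07090) differed by 0.14 and RPS4D (AT5G58420) by −0.24 in 35S:AGL15 against the double mutant, a gap of 0.38 both as deposited and after loess. In eS19, RPS19B stood 0.36 above RPS19A in 35S:AGL15 against wild type, and 0.52 above it after loess.

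**Figure D4:**
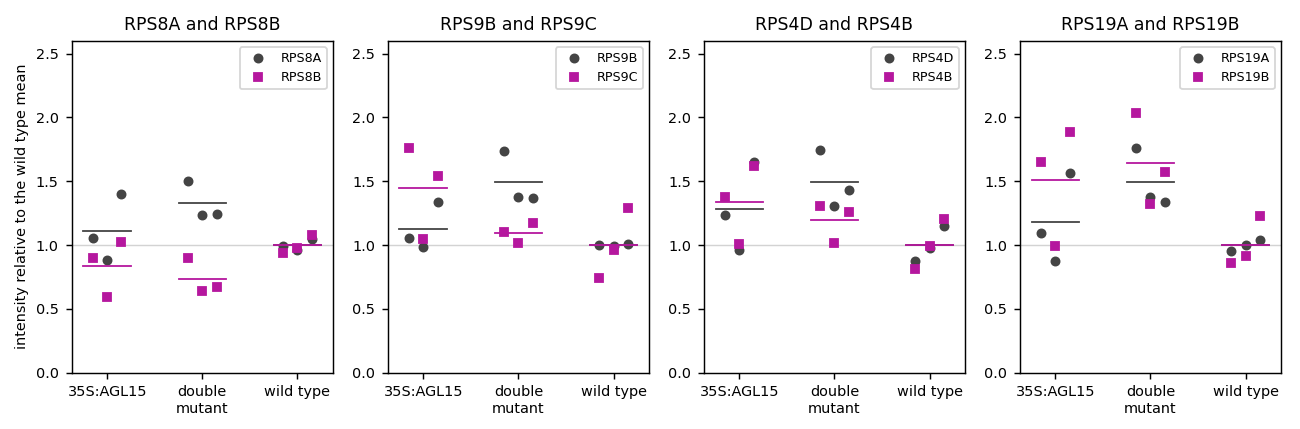
Intensity of 4 pairs of paralogues on each array relative to the wild type mean of the same probe set (linear axis from 0; points are arrays, bars the mean of 3 arrays). As deposited, RPS8A lies above and RPS8B below wild type in the double mutant. RPS9B and RPS9C swap order between 35S:AGL15 and the double mutant as deposited. After loess RPS9C was not below RPS9B in the double mutant (log2 changes against wild type of 0.03 and 0.01).

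Over the 9 arrays the members moved together. Leaving out RPL8B, the median Pearson correlation of log2 intensity over the 1225 pairs of 50 members was 0.86 as deposited, a description over 9 arrays that share their scale and brightness trend. It was 0.96 after median centring, 0.20 after loess and 0.11 after quantile normalization. As deposited, the members least like the others were RPS8B (mean r = 0.03), RPL7D (0.12), RPS11B (0.35), RPL4A (0.37) and RPS9C (0.38). RPL7D (AT3G13580, uL30) read 4806, 4164 and 3917 units in 35S:AGL15, 4191, 5850 and 4739.5 in double mutant cultures, and 4113, 3813 and 4305 in wild type. In the double mutant it was highest on replicate 2, whereas replicate 1 was the highest array for 47 of the 51 members.

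The other cytosolic ribosomal proteins and the factors that build the ribosome gave the setting for these values. Of the 82 probe sets of other cytosolic ribosomal proteins, 7 rose and 1 fell in the double mutant against wild type, where 3.9% of all probe sets were called higher and 15% lower, and 0 passed in 35S:AGL15. AT3G28500, an acidic stalk protein of the P2 type, rose to 266, 167 and 224 units in the double mutant, against 94.9, 71.5 and 113 in wild type (log2 change of 1.23, limma adjusted p = 0.028). AT2G40010, of the P0 type, read 1049, 900.5 and 1022 in the double mutant, against 513, 483 and 494 in wild type (0.99, limma adjusted p = 0.0096). AT4G02230, an RPL19 gene, fell to 3041, 4673 and 4280.0 in the double mutant, against 6527, 6738 and 7203 in wild type (−0.79, limma adjusted p = 0.038). The 7 rises became 42 after median centring, 2 after loess and 0 after spike-in scaling, where 17.9%, 6.98% and 0.347% of all probe sets were called higher. They ranged from 1 (without wild type replicate 2) to 15 (without 35S:AGL15 replicate 3) when single arrays were left out, fits whose shares of all probe sets are not given here. The 1 fall became 0 after median centring and 3 after loess, where 6.93% and 9.49% of all probe sets were called lower.

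Of 13 probe sets of ribosome biogenesis factors, 6 fell and 1 rose in the double mutant against wild type, where 15% of all probe sets were called lower and 3.9% higher, and 0 passed in 35S:AGL15 against wild type. AT2G40430 (SMO4, related to yeast NOP53, which acts in large subunit assembly) read 190, 245 and 237 units in the double mutant, against 1298, 1487 and 1434 in wild type. It fell by 2.66 on the log2 scale (limma adjusted p = 0.0017), and stood at 803, 985 and 612 in 35S:AGL15. AT3G05060, related to NOP58 of the particles that methylate ribosomal RNA, read 258, 345 and 358 in the double mutant, against 1947, 1950.0 and 1557 in wild type, and fell by 2.51 (limma adjusted p = 0.0030). AT3G12860, related to NOP56 of the same particles, read 86.8, 96.9 and 84.9 in the double mutant, against 302, 306 and 243 in wild type, and fell by 1.66 (limma adjusted p = 0.0054). RBL (AT3G55510), a gene that acts in floral meristem determinacy, read 379, 298 and 217 in the double mutant, against 534, 613 and 664 in wild type, and fell by 1.05 (limma adjusted p = 0.016).

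In contrast to these, AT5G15550, of the WDR12 type that acts in large subunit assembly, rose to 2573, 2325 and 2608 units in the double mutant, against 1762, 1626 and 1484 in wild type (0.63, limma adjusted p = 0.037). The median change of the 13 in the double mutant was −0.62 as deposited and −0.56 after loess, while the median over the ribosomal protein members was 0.46 as deposited and −0.02 after loess. It was −0.42 in 35S:AGL15 against wild type. The 6 falls became 3 after median centring and 4 after loess, where 6.93% and 9.49% of all probe sets were called lower. They became 0 with a term for arrays with bright spike-in controls, where 0.022% of all probe sets were called lower and AT2G40430 stood at −2.12 (limma adjusted p = 0.099). That term marks the 3 double mutant arrays and 35S:AGL15 replicate 3. It is estimated only from 35S:AGL15 replicate 3 against replicates 1 and 2, so it cannot separate brightness from genotype in the double mutant. Without wild type replicate 2, wild type replicate 3 or double mutant replicate 3 the count of falls was 3. The shares of all probe sets in these fits are not given here.

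**Figure D5:**
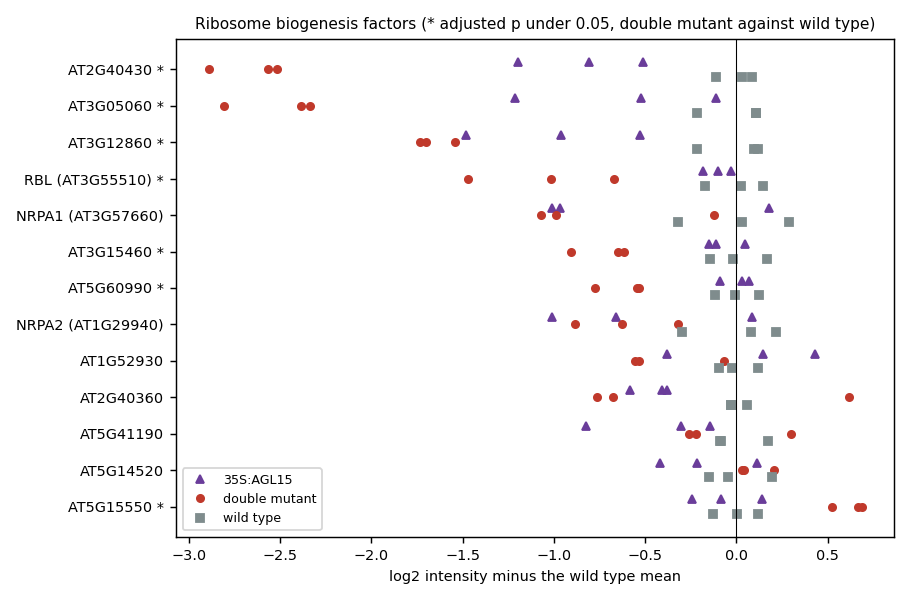
Log2 intensity of 13 ribosome biogenesis factors on each array minus the wild type mean (triangles 35S:AGL15, circles double mutant, squares wild type; stars mark an adjusted p under 0.05 in the double mutant against wild type). The circles of AT2G40430, AT3G05060 and AT3G12860, in the 3 top rows, lie furthest below the wild type squares, with 35S:AGL15 between or beside them. Circles of some other rows, such as RBL (below) and AT5G15550 (above), also lie clear of the squares.

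Of 6 probe sets of translation factors, 0 passed in either comparison with wild type, with medians of 0.48 in the double mutant and 0.11 in 35S:AGL15. Of all probe sets, 3.9% were called higher and 15% lower in the double mutant, and 1.38% and 2.31% in 35S:AGL15. In the double mutant, 4 of the 6 were called higher after median centring, where 17.9% of all probe sets were. Loess called 0 of them there, and their median was 0.05. EIF4A-2, an RNA helicase of translation initiation, was lower in 35S:AGL15 than in the double mutant, with 2001, 4242 and 3025 units in 35S:AGL15, against 7886, 6089 and 6676 in double mutant cultures (−1.21, limma adjusted p = 0.040). Of 8 probe sets of nuclear genes for plastid ribosomal proteins, AT3G54210 alone was called in the double mutant against wild type, beside the same shares. It rose by 0.71 (limma adjusted p = 0.027), and the median of the list was 0.12. The dividing cell markers AUR1 and AUR2, kinases of mitosis, changed by −0.54 and −0.20 in the double mutant and by 0.35 and 0.46 in 35S:AGL15 against wild type, without passing the threshold. AUR1 was higher in 35S:AGL15 than in the double mutant (0.88, limma adjusted p = 0.023). The part of cell division in the values of the ribosomal protein genes was not tested.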

How the data were processed

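The authors deposited 1 linear intensity per probe set and array for 22810 probe sets. How probes were summarised is not given in the sources used here. Intensities were taken to log2 with no offset, 64 control probe sets were left out, and limma 3.58.1 under R 4.3.3 (lmFit, eBayes) fitted a mean per genotype across the 9 arrays, with Benjamini-Hochberg adjustment over 22746 probe sets. The fit was tested on simulated data. Genes come from the platform annotation and RefSeq names of assembly TAIR10.1, under which 13484 probe sets had a single gene, 502 more than 1 and 8760 no gene; family names follow common usage. Members, gene lists and tests were chosen with earlier results of these data known. Named members were those called, or else the 2 highest and 2 lowest changes per comparison; paralogue pairs, members without overlap, and the lowest-ranked families were added after their values were seen. Same-numbered arrays did not deviate together (correlations from −0.09 to 0.03), so replicate numbers were not used to pair arrays. Other scalings, filters, priors, a replicate block, a spike-in brightness term and leaving out arrays were tried. The number of arrays limits precision. A planned search of promoter sequences was not run.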

Additional observations from a re-analysis of the deposited data

How the results depend on the processing

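The direction of the common shift of the ribosomal protein genes rests on the scaling, and the cause was not tested. Members called higher in the double mutant against wild type, 1 as deposited, numbered 32 after median centring, 12 with an offset of 32 before log2, 11 without the dimmest 40% of probe sets, 10 with an intensity trend in the prior, 9 with the arrays of the 2 groups only, and 0 after quantile normalization, cyclic loess, scaling to either spike-in set, with a spike-in brightness term, or with a replicate block, and 0 to 7 when single arrays were left out. The replicate block changed no other count of members past the adjusted threshold; at an unadjusted p under 0.05 it gave 16 higher there, against 19. Spike-in scaling called 1 member lower with either set. Counts under the offset, filter, trend, 2-group fit, replicate block, second spike-in set and single-array omissions have no share of all probe sets beside them. They cannot be read as a result about the members. The median member change in the double mutant against wild type was 0.98 after median centring, 0.077 after quantile normalization and −0.019 after loess. It was −0.20 and −0.34 with the spike-in sets (the second set was chosen after seeing the data) and −0.10 with the brightness term. The brightness term is estimated only from 35S:AGL15 replicate 3 against replicates 1 and 2. All double mutant arrays carry it, so it cannot separate brightness from genotype there. The small minus large subunit gap was 0.18 after quantile normalization, 0.18 after loess, 0.18 with the brightness term, 0.20 without the dimmest probe sets, and 0.17 to 0.26 without single arrays. In 35S:AGL15 against wild type, the median member change was 0.47 after median centring and −0.0083 with the second spike-in set, and the gap 0.043 to 0.098 without single arrays. In 35S:AGL15 against the double mutant, members called lower, 0 as deposited, numbered 2 after median centring and 1 with the offset, the filter or the trend, and 0 to 1 without single arrays; the median was −0.50 after median centring, 0.0093 after loess, 0.30 and 0.34 with the spike-in sets and 0.14 with the brightness term, and the gap −0.10 with that term. Single genes also turned sign. In 35S:AGL15 against wild type RPL4D stood at 0.24 after median centring and −0.12 to 0.14 without single arrays. In the double mutant against wild type, the second spike-in set gave −0.10 for RPS10A, −0.093 for RPS14B, −0.086 for RPS19B and −0.091 for AT3G54210, and median centring gave 0.072 for RPL8B and 0.063 for RPS8B. RPL8B ran from −1.01 to 0.14 there without single arrays, and from −0.013 to 1.03 in 35S:AGL15 against the double mutant. In the last comparison RPL4D stood at 0.0043 and 0.046 and RPS19C at 0.072 and 0.11 with the spike-in sets, and AT5G23900 at 0.014 with the second. The other single-gene changes recomputed under these alternatives kept their sign; RPS14A and the remaining paralogues were recomputed under the scalings only.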
